A study of Mus musculus with 8 samples.

Results

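Among 6959 islet cells, 201 carried the deposited cell type name Pericytes, which made up the whole of deposited cluster 12 of 17. The annotation holds 12 classes, and pericytes and fibroblasts are the 2 that remain once the acinar, alpha, beta, delta, ductal, endothelial and immune classes are set aside. Pericytes were chosen by their level of *Col3a1*, a fibrillar collagen gene, as the remaining class in which it was lower. It stood at 2558 CPM (counts scaled to a common library total, 95% Poisson interval 2460 to 2658) in pericytes and at 5350 CPM (5268 to 5432) in fibroblasts. That difference was used for the choice and is only a description. Of the 201 pericytes, 137 came from the vehicle library, 3.63% of its 3776 cells (95% Clopper-Pearson interval 3.06 to 4.28), and 64 came from the FAKi library, 2.01% of its 3183 cells (1.55 to 2.56).

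The study asked what inhibition of focal adhesion kinase (FAK) does to the cells of the mouse pancreas. Wild-type mice aged 6 to 12 weeks, whose strain is not given for this experiment, received either the FAK inhibitor PF-562271 (FAKi) at 50 mg/kg, 2 times a day by gavage for 3 weeks, or the vehicle alone, and islets were isolated 10 days after the last dose. About 1200 handpicked islets from 5 mice were pooled for each treatment, dissociated and loaded on a droplet platform that counts each captured RNA molecule once through a unique molecular identifier (UMI). The 8 samples of the series are 4 sequencing lanes of each of the 2 libraries. There is therefore 1 library of pooled animals per treatment and no replicate, so ratios between the libraries have no test, and animal-to-animal spread, the treatment and the preparation cannot be told apart.

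Pericytes are mural cells. They sit on the outer face of capillaries inside the basement membrane that they share with the endothelium, they are recruited and kept through platelet-derived growth factor signalling, and they adjust capillary width. Around arterioles they grade into smooth muscle cells, which hold more contractile protein. In islets they line a dense capillary bed through which hormones leave, and related perivascular cells of the exocrine tissue, the stellate cells, can take on a fibroblast-like state that lays down matrix.

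Pericytes were shallow cells. Their UMIs numbered 766991 for vehicle and 248294 for FAKi, with a median per cell of 4641 against 3400.5. The median number of detected genes was 2075 against 1650, and the median share of mitochondrial UMIs was 5.57% against 5.03%. Endothelial cells (5752 against 4836) and fibroblasts (7880.5 against 7494) were also shallower in the FAKi library, whereas over all cells its median was the higher, at 13688 against 10101.5 UMIs. A doublet caller marked 120 vehicle and 74 FAKi cells, of which 0 and 2 were pericytes. The libraries shared 4 cell barcodes, 1 of them in a pericyte.

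The deposited name was checked against marker lists. All 18 genes of a pericyte and smooth muscle list had their highest level of the 12 classes in pericytes, in sums over both libraries. The genes that stood farthest above all other cells were led by *Rgs5*, a brake on G protein signalling that is widely used to mark pericytes (chromosome 1, 169655501 to 169695813, mm10). It stood at 8872 CPM in vehicle and 6049 CPM in FAKi pericytes, against 17.1 and 5.94 CPM in all other cells. At least 1 *Rgs5* UMI was found in 197 of the 201 pericytes (98.0%), whose median depth over both libraries was 4167 UMIs, and in 3.73% of 1314 endothelial and immune cells, whose median depth was 5073 UMIs. *Pdgfrb*, the platelet-derived growth factor receptor, stood at 980 CPM in vehicle and 999 CPM in FAKi pericytes and had a UMI in 191 of the 201 cells, against 1.14% of endothelial and immune cells. *Notch3*, the Notch receptor of mural cells (chromosome 17, 32120820 to 32166852), stood at 966 and 1023 CPM and had a UMI in 94.0%, against 1.37%. These genes chose the class when its cells were clustered, so their excess is a description with no test.

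The other leading genes fell into a few groups. Contractile genes were represented by *Acta2* (smooth muscle actin), *Tagln* (transgelin), *Myl9* (a myosin light chain), *Tpm2* (a tropomyosin) and *Myh11* (smooth muscle myosin heavy chain). *Ndufa4l2* and *Cox4i2*, variants of respiratory chain subunits, and *Higd1b* formed a second group, with *Higd1b* at 528 CPM in vehicle and 729 CPM in FAKi pericytes and at 0.408 and 0.313 CPM in all other cells. *Vtn* (vitronectin), *Mgp* (matrix Gla protein, an inhibitor of calcification) and *Aspn* (asporin) encode secreted or matrix proteins. *Ccl19* and *Ccl11*, chemokines, *Ifitm1*, the transcription factor *Zeb2* and *Gm13889* were also among them. The other named leading genes had a UMI in 69.7% to 98.0% of pericytes, but *Ccl19* and *Ccl11* had one in 40.3% and 36.8%.

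The defining markers of other cell types were checked next. On the fibroblast and activated stellate list, 16 of 17 genes were lower in pericytes than in fibroblasts once *Col3a1*, which chose the class, was set aside, the exception being *Postn* (periostin), at 342 CPM in pericytes and 108 CPM in fibroblasts. *Pdgfra*, the receptor that defines fibroblasts, had 3 UMIs in pericytes and stood at 329 CPM in fibroblasts. *Pecam1*, which marks endothelium, had a UMI in 2 pericytes, *Ptprc*, which marks leukocytes, in 1, and *Sox10*, which marks Schwann cells, in 0 of 201, which allows a share of cells with a UMI, not of cells expressing the gene, of up to 1.49% (3 cells). Some genes on the lists of other cell types were nevertheless higher in pericytes than in any other class, among them *Ebf1*, a factor of the B-cell list, at 880 CPM against 722 CPM in B cells, *Cryab*, a small heat shock protein of the Schwann list, at 407 CPM, *Id4* of the pancreatic polypeptide cell list at 327 CPM and *Sdc1*, syndecan 1 of the plasma cell list, at 166 CPM. *Ins2*, an insulin gene, had a UMI in every pericyte and in 99.8% of endothelial and immune cells, and *Prss2*, a trypsinogen of acinar cells, had one in 55.2% of pericytes and 53.6% of endothelial and immune cells. A UMI of either gene in a pericyte is therefore not read as expression. Over the genes with at least 50 UMIs in pericytes, the correlation of log2(CPM + 10) with the other classes was highest for fibroblasts (Pearson's r = 0.769 over 3465 genes) and next for endothelial cells (0.598). These points share libraries and free RNA, and the values are descriptive.

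**Figure D1:**
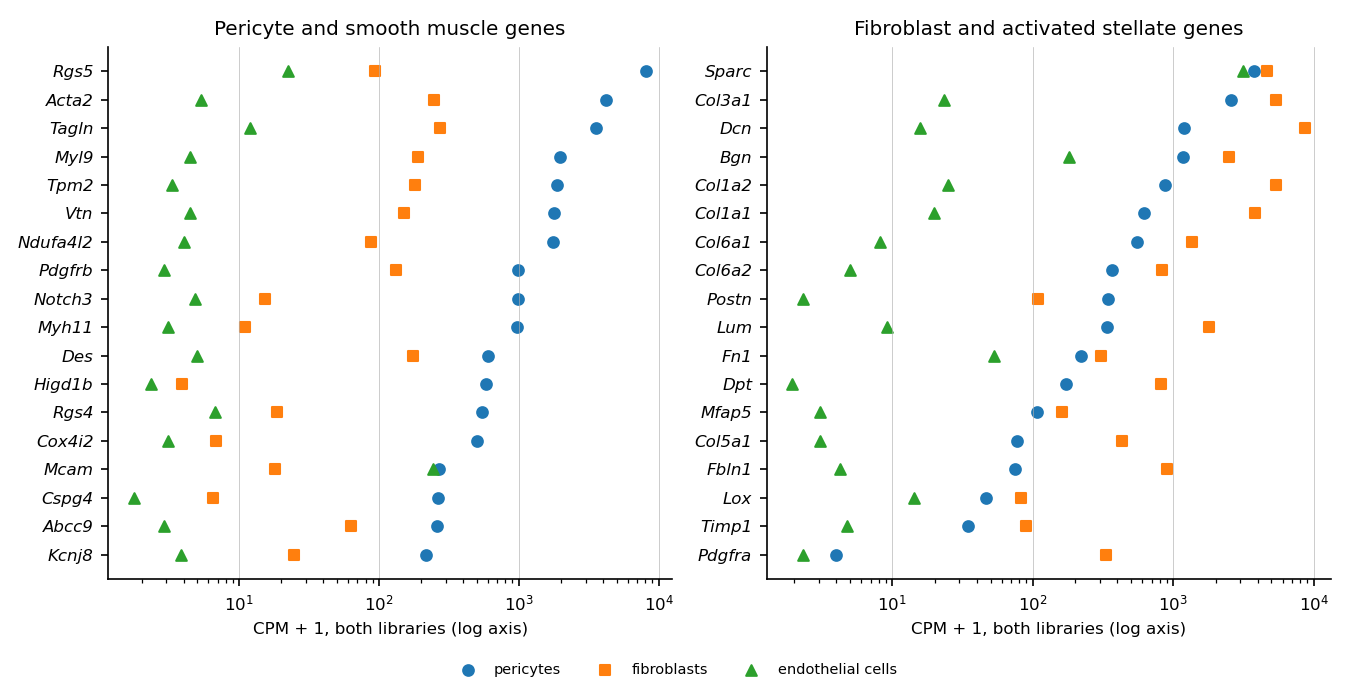
Level of 18 pericyte and smooth muscle genes (left) and 18 fibroblast and activated stellate genes (right) in pericytes (circles), fibroblasts (squares) and endothelial cells (triangles), as CPM + 1 over both libraries on a log axis. All 18 genes on the left are highest in pericytes, and on the right, with *Col3a1*, which chose the class, set aside, 16 of 17 are lower in pericytes than in fibroblasts, the exception being *Postn*.

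The class was not uniform. *Dcn* (decorin, chromosome 10, 97479609 to 97518143), *Lum* (lumican) and *Col1a1* (type I collagen), all matrix genes, together with *Ccl19* (chromosome 4, 42754525 to 42756577) and *Ccl11*, were found in some pericytes and nearly absent from the rest. Of the 201 cells, 100 held no UMI of these 5 genes, and the highest share in a cell was 2.04% of its UMIs. A range was therefore drawn after the values were seen. Cells with over 0.2% of their UMIs on the 5 genes are called matrix-high below and the others matrix-low, with 22 cells lying between 0.1% and 0.4%. The terms stand for a range of a score and not for cell types.

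By that cut, 59 of 137 vehicle pericytes (43.1%, 95% interval 34.6 to 51.8) and 15 of 64 FAKi pericytes (23.4%, 13.8 to 35.7) were matrix-high. The intervals overlapped between 34.6% and 35.7%. With each cell thinned to 1000 UMIs and at least 2 matrix UMIs asked for, the numbers were 61 of 137 (44.5%) and 16 of 63 (25.4%), 1 shallower FAKi cell being left out. With a cut at 0.1% the shares were 46.7% and 28.1%, and with a cut at 0.5% they were 26.3% and 18.8%. The genes of the cut were themselves compared between treatments, so these shares are given as values only, and the intervals here and throughout cover counting error alone.

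Genes outside the cut followed it in both libraries. *Apoe*, a lipid carrier, stood at 7576 CPM in matrix-high and 117 CPM in matrix-low cells of the vehicle library, and at 11798 and 144 CPM in the FAKi library. *Cxcl1*, a neutrophil-attracting chemokine, stood at 979 against 105 CPM in vehicle cells and at 838 against 62.5 CPM in FAKi cells. *Chrdl1*, a bone morphogenetic protein antagonist, stood at 245 against 2.50 CPM in vehicle cells and at 374 against 12.5 CPM in FAKi cells, and at 8.38 CPM in fibroblasts. *Colec11*, a collectin, lay on the same side, at 322 and 510 CPM in matrix-high vehicle and FAKi cells and at 21.0 CPM in fibroblasts. The lists of chemokines and cytokines, of collagen and basement membrane and of MHC class I genes were higher in matrix-high cells of both libraries for 5 of 5, 12 of 16 and 6 of 7 members with 50 UMIs, the genes of the cut set aside. Over all 3460 genes with 50 UMIs outside the cut, 28.4% were higher and 36.2% lower in matrix-high cells of both libraries.

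Matrix-low cells had transcripts of their own. *Casq2*, a calcium store protein of muscle cells (chromosome 3, 102086415 to 102146514), had a UMI in 83 of 127 matrix-low cells and in 1 of 74 matrix-high cells. Its level was 672 CPM in matrix-low and 2.73 CPM in matrix-high cells of the vehicle library, and 513 against 0 CPM in the FAKi library. *Rgs4*, a further regulator of G protein signalling, had a UMI in 119 of 127 matrix-low and 20 of 74 matrix-high cells. *Cspg4*, the NG2 proteoglycan used to mark pericytes, stood at 455 CPM in matrix-low and 21.8 CPM in matrix-high vehicle cells, and at 463 and 22.6 CPM in FAKi cells. The endothelin receptor gene *Ednrb* and the sphingosine phosphate receptor gene *S1pr3* lay on the same side in both libraries.

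Some leading mural genes had similar levels in both ranges and others did not. *Rgs5* stood at 9385 CPM in matrix-high and 8403 CPM in matrix-low vehicle cells, and at 5560 and 6320 CPM in FAKi cells. *Notch3* stood at 897 and 1029 CPM in vehicle cells and at 872 and 1106 CPM in FAKi cells. *Higd1b*, in contrast, stood at 243 CPM in matrix-high and 789 CPM in matrix-low vehicle cells and at 283 and 975 CPM in FAKi cells, and *Cox4i2* at 180 and 752 CPM and at 136 and 825 CPM. Of the 18 pericyte and smooth muscle genes, 11 were lower and 3 higher in matrix-high cells of both libraries. *Pdgfra* had 3 UMIs in matrix-high cells and 0 in matrix-low cells. Matrix-high cells shared *Dcn*, *Lum* and *Col1a1* with fibroblasts, but *Pdgfra*, at 329 CPM in fibroblasts, was at 5.45 and 11.3 CPM in vehicle and FAKi matrix-high cells.

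**Figure D2:**
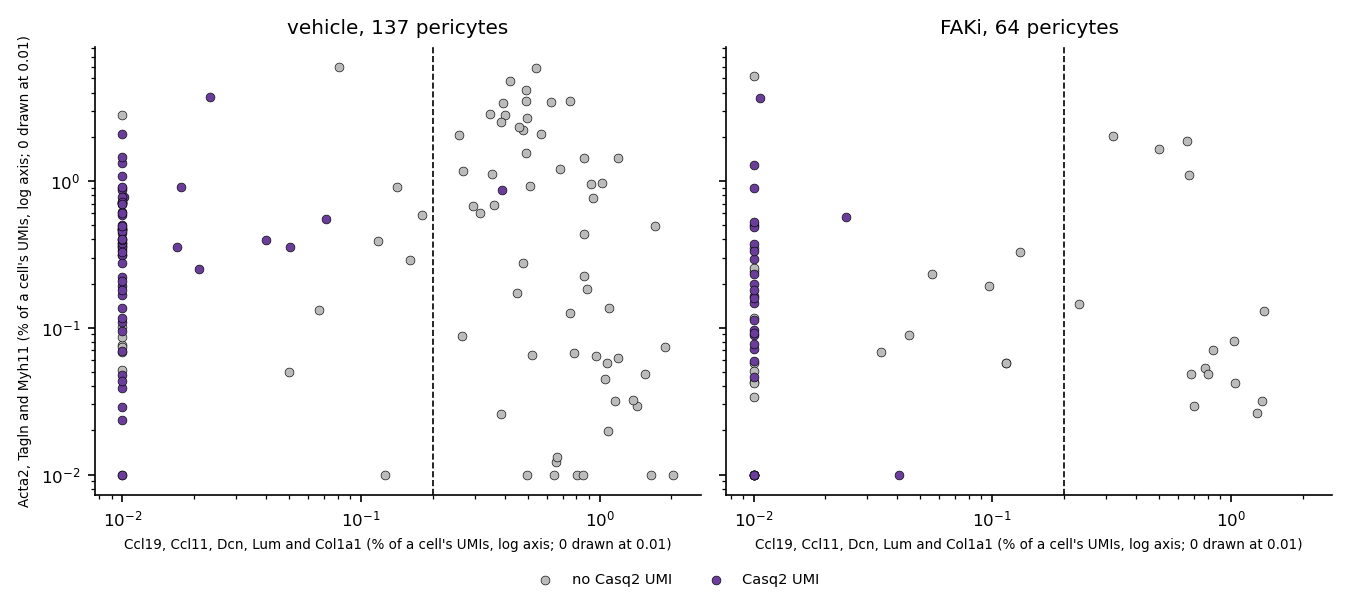
Share of each pericyte's UMIs on *Ccl19*, *Ccl11*, *Dcn*, *Lum* and *Col1a1* (horizontal) against its share on *Acta2*, *Tagln* and *Myh11* (vertical), on log axes with 0 drawn at 0.01, for vehicle (left) and FAKi (right); filled points hold a *Casq2* UMI, and the dashed line is the cut at 0.2%. Right of the line lie 59 of 137 vehicle and 15 of 64 FAKi cells, and 1 of these 74 cells holds a *Casq2* UMI.

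FAKi and vehicle pericytes were then compared over all genes. Of 3465 genes with at least 50 UMIs in pericytes over both libraries, 42 (1.21%) were higher by 2-fold or more in FAKi pericytes and 118 (3.41%) were lower by 2-fold or more, together 4.62%. The log2 ratio, taken here and below as log2 of FAKi over vehicle with 10 CPM added to each, had a median over these genes of 0.0048. In fibroblasts, 160 of 6953 genes (2.30%) were higher and 325 (4.67%) lower by the same measure, together 6.98%. In endothelial cells it was 55 of 8675 (0.634%) and 242 (2.79%), together 3.42%, but those classes were sequenced to other depths. The counts describe 2 libraries and are not counts of tested genes. In pericytes they became 12 higher and 12 lower with a pseudocount of 100 CPM. After thinning to 1000 UMIs per cell they were 18 and 28 of 584 genes, and other settings are given at the end. Vehicle pericytes held 766991 UMIs and FAKi pericytes 248294. A gene high only in vehicle therefore reaches the summed minimum of 50 UMIs more easily than one high only in FAKi.

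**Figure D3:**
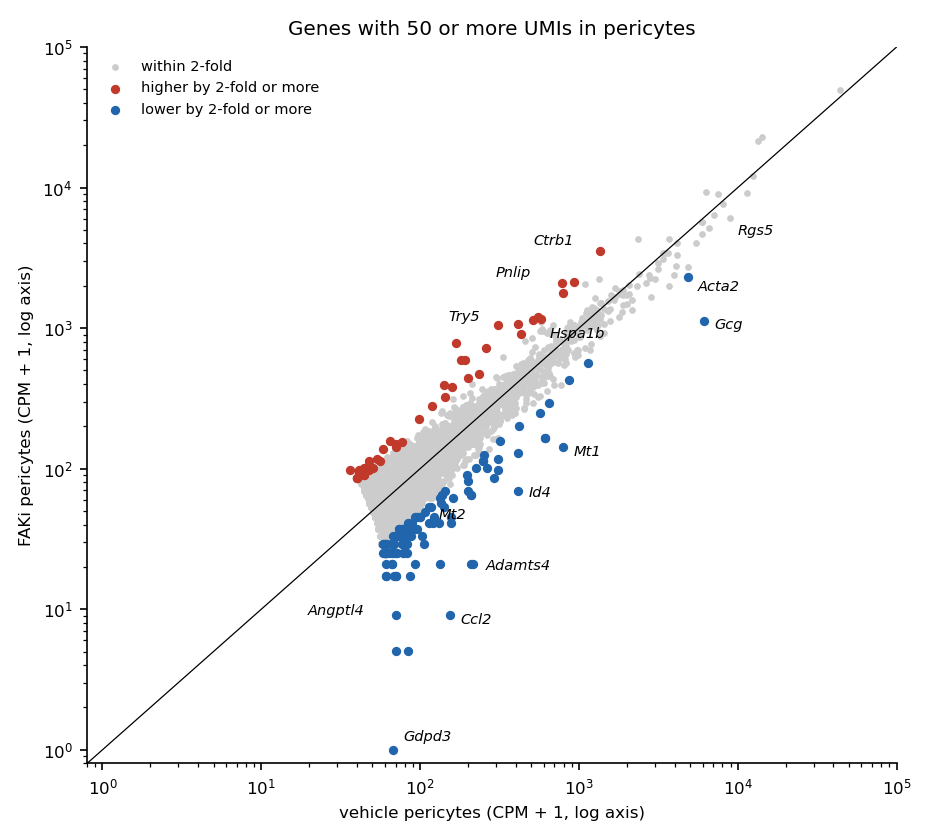
CPM + 1 in FAKi pericytes against vehicle pericytes for 3465 genes with at least 50 UMIs, on log axes, with the line of equal level. The 42 genes higher by 2-fold or more are red and the 118 lower ones blue, and *Gdpd3*, with 0 UMIs in FAKi cells, lies at the bottom.

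The 12 genes with the lowest ratios have varied functions. *Ccl2*, a monocyte-attracting chemokine (chromosome 11, 82035571 to 82037453), had 117 UMIs in vehicle and 2 in FAKi pericytes, or 153 and 8.06 CPM, a ratio of 0.0528 (95% interval 0.0063 to 0.195). Its UMIs came from 13 vehicle cells and 2 FAKi cells, and 1 cell held 42.0% of them. *Adamts4*, a protease that cleaves proteoglycans (chromosome 1, 171250421 to 171260637), had 164 UMIs in 42 vehicle cells and 5 in 5 FAKi cells, or 214 and 20.1 CPM, a ratio of 0.0942 (0.0302 to 0.224). No cell held more than 11.2% of its UMIs, so its difference was spread over many cells.

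*Mt1*, a metallothionein that binds zinc and copper, had 611 and 35 UMIs, or 797 and 141 CPM, a ratio of 0.177 (0.122 to 0.249). It was found in 54.0% of vehicle and 26.6% of FAKi pericytes, and after thinning to 1000 UMIs per cell in 32.1% and 9.52%. *Id4*, an inhibitor of basic helix-loop-helix factors, had 315 and 17 UMIs, or 411 and 68.5 CPM, a ratio of 0.167 (0.0959 to 0.271). The share of cells with an *Id4* UMI was 34.3% and 12.5%, and after thinning 19.7% and 1.59%. Both genes thus showed a lower level and a lower share of cells, also at matched depth. *Id4* was mostly a gene of matrix-high cells, with a UMI in 48 of 74 of them and in 7 of 127 matrix-low cells, and within matrix-high cells it was found in 42 of 59 vehicle and 6 of 15 FAKi cells.

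*Rgs16*, another regulator of G protein signalling, stood at 209 and 20.1 CPM (ratio 0.0965), and *Socs1*, a feedback inhibitor of cytokine signalling, at 133 and 20.1 CPM (ratio 0.151). *Angptl4*, a secreted inhibitor of lipoprotein lipase, stood at 69.1 and 8.06 CPM, *Ccn5*, a matricellular protein, at 83.4 and 4.03 CPM, and *Ddit4*, an inhibitor of mTOR signalling, at 69.1 and 4.03 CPM. *Gdpd3*, a lysophospholipase D, had 51 UMIs in vehicle and 0 in FAKi pericytes, at least 5.50-fold lower when 3 counts are set as the floor of the FAKi library. *Stmn1*, a regulator of microtubules that is raised in dividing cells, had 65 and 4 UMIs, but 1 cell held 49.3% of them. The UMI counts behind the FAKi values of these genes were 5 or fewer, so the size of each ratio is loosely set. *Gdpd3*, *Ddit4* and *Angptl4* passed the summed minimum of UMIs through the vehicle library, which held more pericyte UMIs than the FAKi library. A gene with a similar level in FAKi pericytes only would not have passed it. The place of these genes among the lowest ratios therefore depends in part on the filter.

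*Gcg*, the glucagon gene, was also among the 12 lowest and rested on very few cells. It had 4700 UMIs in vehicle and 279 in FAKi pericytes, a ratio of 0.183. A pair of vehicle cells held 2216 and 2263 of these UMIs. Without cells that held 1000 or more UMIs of *Gcg* or *Ins2*, the log2 ratio was 1.88, and *Gcg* was higher in the FAKi library. *Ins2* itself had a median of 17 UMIs per vehicle and 27 per FAKi pericyte, and 1 cell of each library held 6850 and 3024 UMIs. *Sst*, *Chga* and *Chgb*, genes of endocrine cells, had over 50% of their UMIs in 1 cell and were left out of the ranking.

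The 12 genes with the lowest ratios were chosen on these same cells, so their ratios in the matrix-high and matrix-low ranges are a description. In matrix-high cells *Ddit4* had a ratio of 0.593, and in matrix-low cells *Id4* had one of 0.569, while *Ccn5* had 1 and 0 UMIs there. In matrix-low cells 1 cell held over 50% of the UMIs for 6 of the 12, *Ccl2*, *Ccn5*, *Gcg*, *Id4*, *Rgs16* and *Stmn1*, and in matrix-high cells for 2, *Gcg* and *Stmn1*. *Adamts4* had a ratio of 0.0639 in matrix-high and 0.221 in matrix-low cells, and *Mt1* 0.192 and 0.222. *Ccl2* had a ratio of 0.0639 in matrix-high cells, while 50 of its 52 UMIs in vehicle matrix-low cells came from 1 cell, so that no direction is read from that range. For fibroblasts, 8 of the 12 genes had 50 UMIs, and 4 of these were lower by 2-fold or more, against 4.67% of all genes there. For endothelial cells it was 3 of 9, against 2.79%. *Ddit4*, *Gcg*, *Id4*, *Rgs16* and *Stmn1* were above vehicle in fibroblasts, so that 7 of the 12 had the direction of the pericytes there, against 10 of 12 in endothelial cells. The median log2 ratio over all genes with 50 UMIs was -0.070 in fibroblasts and -0.024 in endothelial cells. The count of 7 of 12 therefore says nothing particular about these genes. *Mt1*, for instance, had a ratio of 0.610 in fibroblasts and 0.735 in endothelial cells, and *Adamts4* 0.263 and 0.315. *Socs1* had a ratio of 0.962 in fibroblasts and 0.665 in endothelial cells. The difference between classes was not tested.

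The highest ratios belonged mostly to digestive enzyme genes of acinar cells. *Try5*, a trypsinogen, stood at 310 CPM in vehicle and 1051 CPM in FAKi pericytes, a ratio of 3.39 (2.83 to 4.06). *Ctrb1*, a chymotrypsinogen, stood at 1347 and 3548 CPM, a ratio of 2.63 (2.40 to 2.89), and *Pnlip*, pancreatic lipase, at 786 and 2082 CPM, a ratio of 2.65. *Ctrl*, *Ctrc*, *Cpb1*, *Pnliprp1*, *Prss2* and *Rnase1*, also secretory products of acinar cells, had ratios of 2.28 to 3.32. Members of the trypsinogen and chymotrypsinogen families are similar in sequence, and reads may have been split between them.

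The same direction was found in other classes. All 10 named genes of high ratio were above vehicle in fibroblasts and in endothelial cells of the FAKi library. In fibroblasts 9 of 10 were higher by 2-fold or more, against 2.30% of all genes there. In endothelial cells it was 6 of 10, against 0.634%. The size of these values can rest on few cells. For *Prss2*, 1 cell held 48.5% of 1201 UMIs in FAKi fibroblasts and 38.2% of 3505 in FAKi endothelial and immune cells. *Try5* had a ratio of 6.40 in fibroblasts and 2.95 in endothelial cells. The summed level of the 16 genes of the acinar marker list was 8175 CPM in vehicle and 17677 CPM in FAKi pericytes. It was 2946 and 29303 CPM in matrix-high cells but 12964 and 11258 CPM in matrix-low cells, where the median log2 ratio of the list was -0.34. The 15 FAKi matrix-high cells had a median of 1 *Prss2* UMI, and the richest held 97, 53 and 51 of 344. Of the 10 named genes, chosen on these same cells, 10 of 10 were past 2-fold in matrix-high and 1 of 10 in matrix-low cells, where *Prss2* and *Rnase1* were lower, with log2 ratios of -0.35 and -0.028. The part that RNA from acinar cells has in these values was not tested.

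*Lars2*, a mitochondrial leucyl-tRNA synthetase, was the 1 named gene of high ratio that is not an acinar product. It stood at 409 and 1071 CPM, a ratio of 2.62 (2.21 to 3.09), and had a UMI in 121 of 137 vehicle and 61 of 64 FAKi cells. Its ratio was 2.27 in matrix-high and 2.79 in matrix-low cells, and 1.48 in fibroblasts and 1.69 in endothelial cells.

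**Figure D4:**
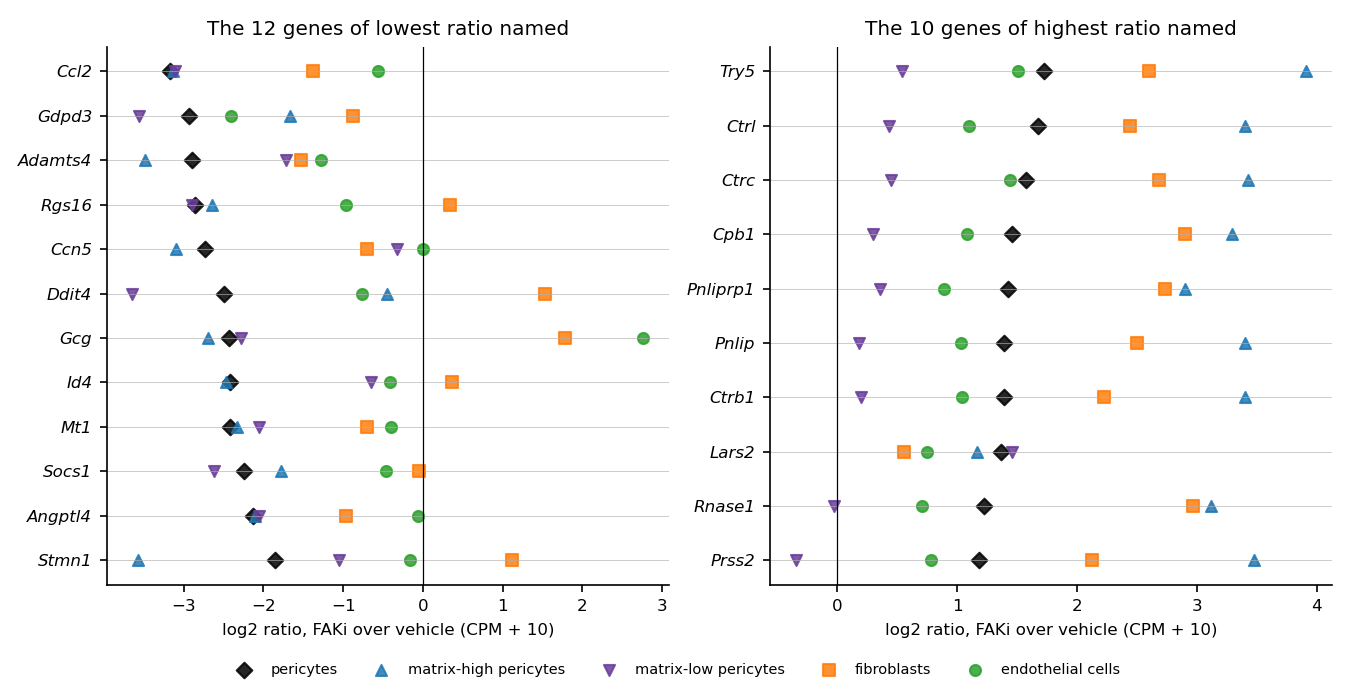
Log2 ratio of FAKi over vehicle for the 12 genes with the lowest (left) and the 10 named genes with the highest (right) ratio in pericytes, in all pericytes, in matrix-high and matrix-low pericytes, in fibroblasts and in endothelial cells. The genes were chosen on the values of all pericytes, which both ranges make up, and on the right *Prss2* and *Rnase1* lie below 0 in matrix-low pericytes.

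Most genes of contraction had lower values in FAKi pericytes, few of them past 2-fold. Of 14 members with 50 UMIs, 3 were lower by 2-fold or more and 0 higher, against 3.41% and 1.21% of all genes, and 13 of 14 had a ratio below 1, against 49.4% of all genes, with a median log2 ratio of -0.51. *Acta2* (chromosome 19, 34241090 to 34255590) stood at 4824 CPM in vehicle and 2328 CPM in FAKi pericytes, a ratio of 0.483 (0.441 to 0.527). *Actg2*, the enteric smooth muscle actin, stood at 207 and 64.4 CPM (ratio 0.311), and *Cnn1*, calponin, at 65.2 and 20.1 CPM (ratio 0.309). *Tagln* (ratio 0.596), *Myl9* (0.624) and *Mylk*, the myosin light chain kinase (0.571), lay below 1 without reaching 2-fold, and *Myh11* had a ratio of 0.855.

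The contractile difference varied across cells and ranges. The share of a cell's UMIs on *Acta2*, *Tagln* and *Myh11* had a median of 0.391% in vehicle and 0.0941% in FAKi pericytes, and it exceeded 1% in 28 of 137 and 7 of 64 cells. In matrix-high cells the median log2 ratio of the 14 genes was -0.83 and in matrix-low cells -0.21. *Acta2* had a ratio of 0.406 in matrix-high and 0.642 in matrix-low cells. In these ranges 1 cell held 36.2% and 43.6% of its FAKi UMIs. *Actg2* had ratios of 0.0909 and 1.48 in the same order. Its FAKi levels rest on few UMIs, so no direction is read from its matrix-low value. *Acta2* had a UMI in 60.6% of vehicle and 41.3% of FAKi pericytes after thinning to 1000 UMIs. In fibroblasts and endothelial cells the median of the same genes was -0.04 and -0.01.

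Immediate early genes respond within minutes to growth factors, stress or tissue handling. All 17 members with 50 UMIs had a ratio below 1 over all pericytes, against 49.4% of all genes, and 2 of them, *Klf4* (ratio 0.455) and *Zfp36* (0.496), were lower by 2-fold or more, against 3.41%. *Egr1* stood at 3691 CPM in vehicle and 1978 CPM in FAKi pericytes (ratio 0.536), *Junb* at 4872 and 2702 CPM (0.555), *Fos* at 5428 and 4052 CPM (0.746) and *Jun* at 4160 and 4064 CPM (0.977, 0.909 to 1.05). In matrix-high cells *Fos* was above vehicle, with a ratio of 1.13. The median log2 ratio was -0.56. It was -0.14 in matrix-high and -0.95 in matrix-low pericytes, and -0.28 in fibroblasts and -0.42 in endothelial cells. The part of islet isolation and dissociation in these values was not tested.

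Chemokines and cytokines had 6 members with 50 UMIs, all 6 below vehicle and 2 lower by 2-fold or more, against 49.4% and 3.41% of all genes, with a median log2 ratio of -0.74. Besides *Ccl2*, *Il6*, interleukin 6, stood at 261 and 101 CPM, a ratio of 0.386 (0.244 to 0.587), with UMIs in 43 vehicle and 6 FAKi cells. *Cxcl10*, an interferon-induced chemokine, stood at 301 and 161 CPM (ratio 0.535), but its UMIs came from 19 vehicle and 3 FAKi cells, and 1 cell held 35.8% of them. *Cxcl1* (0.647), *Ccl19* (0.659) and *Cxcl12* (0.757) lay nearer to 1. *Ccl7*, a relative of *Ccl2*, had 26 UMIs in vehicle and 0 in FAKi pericytes. *Ccl11*, a chemokine that is not on the list, stood at 541 and 560 CPM. The listed genes were higher in matrix-high cells. Their median log2 ratio was -0.20 in matrix-high and -1.20 in matrix-low cells, and -0.35 with both ranges given equal weight in each library. The matrix-low median rests on few UMIs, such as 42 in vehicle and 10 in FAKi cells for *Cxcl1* and 40 and 4 for *Il6*. It includes *Ccl2*, of which 1 cell held 50 of 52 vehicle UMIs.

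Collagen and basement membrane genes numbered 17 with 50 UMIs, of which 16 had a ratio below 1, against 49.4% of all genes, and 0 were past 2-fold, with a median log2 ratio of -0.34. *Col3a1* stood at 2844 CPM in vehicle and 1675 CPM in FAKi pericytes (ratio 0.589), and *Col1a1* at 694 and 391 CPM (0.563). *Col4a1* and *Col4a2*, chains of the basement membrane collagen, had ratios of 0.807 and 0.851. Within matrix-low cells, which make up the larger part of the FAKi pericytes, *Col4a1* had a ratio of 1.06 and the median of the list was -0.10, against -0.39 in matrix-high cells. In fibroblasts the median was -0.46. The fibroblast class was not alike in the 2 libraries. *Sox10* had a UMI in 2.65% of vehicle and 15.9% of FAKi fibroblasts, and *Pdgfra* in 79.9% and 52.4%. The part of this in the fibroblast ratios given here and above was not tested.

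The kinase that the drug inhibits was measured at the RNA level only. *Ptk2*, which encodes FAK, stood at 179 CPM in vehicle and 189 CPM in FAKi pericytes, a ratio of 1.06 (0.744 to 1.49), from 137 and 47 UMIs. Of 18 FAK and focal adhesion genes with 50 UMIs, 0 were past 2-fold and 11 had a ratio below 1, with a median log2 ratio of -0.22. Over all genes the shares were 4.62% and 49.4%, so neither count says anything particular about the list. *Flna*, filamin A, stood at 628 and 354 CPM (ratio 0.564), while *Itgb1* and *Itga1*, integrin subunits, had ratios of 0.853 and 0.859. *Actn4*, *Tns1* and *Fermt2*, which link integrins to actin, had ratios of 0.692, 0.874 and 1.16. Among 10 genes with 50 UMIs of a list of the mechanosensitive YAP and TEAD factors, their partners and their targets, 6 had a ratio below 1, and 1, *Crim1*, was lower by 2-fold or more, at 200 and 68.5 CPM (ratio 0.343), against 49.4% and 3.41% of all genes. *Ccn2*, a standard target, had a ratio of 1.00, and *Ccn1* one of 0.511.

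Stress genes divided. *Mt1* and *Mt2* were the 2 members past 2-fold among 12 antioxidant and metallothionein genes, both lower, against 3.41% of all genes, with *Mt2* at 112 and 40.3 CPM (ratio 0.359). *Txnip*, an inhibitor of thioredoxin, was at 592 and 955 CPM (1.61), and *Gpx4* and *Prdx1*, peroxidases, had ratios of 1.00 and 1.02. In the heat shock and unfolded protein response list, 3 of 15 members had a ratio below 1, against 49.4% of all genes. *Hspa1b* and *Hspa1a*, near-identical inducible chaperone genes between which reads may be split, had ratios of 2.02 and 1.85, and *Dnajb9*, a chaperone of the endoplasmic reticulum, was lower at 99.1 and 44.3 CPM (0.447). *Hspa1a* was also above vehicle in fibroblasts (1.54) and endothelial cells (1.94).

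**Figure D5:**
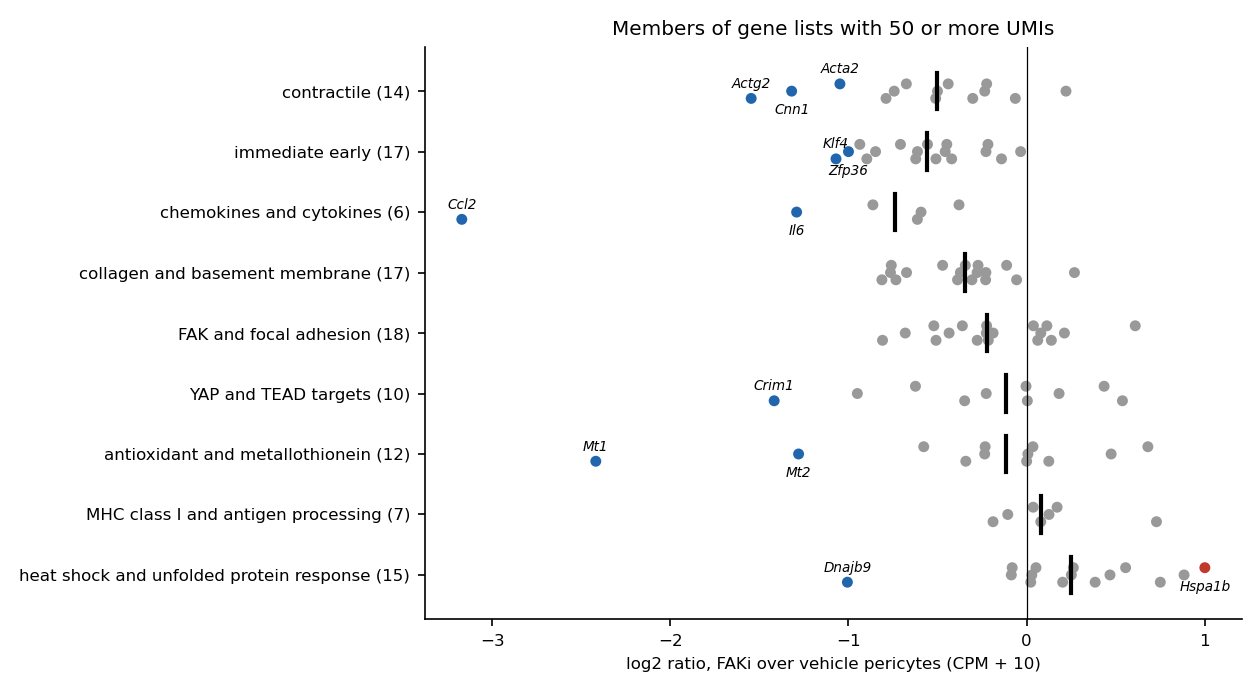
Log2 ratio of FAKi over vehicle pericytes for the members of 9 gene lists that had at least 50 UMIs, their number in parentheses; bars are medians, and members past 2-fold are coloured and named. All 17 immediate early and 13 of 14 contractile genes have a ratio below 1, against 49.4% of all genes.

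Several defining mural genes had ratios near or above 1 over all pericytes. *Pdgfrb* (ratio 1.02), *Notch3* (1.06), *Vtn* (1.04) and *Ndufa4l2* (1.13) lay near 1. For *Pdgfrb* this joined a ratio of 0.645 in matrix-high and 1.21 in matrix-low cells. *Vtn* had 1.38 and 0.887 in the same order, *Ndufa4l2* 0.847 and 1.11, and *Notch3* 0.972 and 1.08. *Rgs5* had a ratio of 0.682 (0.644 to 0.721) and *Des*, desmin, one of 0.702. *Abcc9* and *Kcnj8*, which encode the subunits of the vascular ATP-sensitive potassium channel, had ratios of 1.89 (1.45 to 2.44) and 1.45 (1.08 to 1.94), and *Rgs4* one of 1.77 (1.48 to 2.11). The *Rgs4* ratio was lower within each range, at 1.16 in matrix-high and 1.49 in matrix-low cells. *Abcc9* stood at 277 CPM in vehicle and 588 CPM in FAKi matrix-low cells and at 139 and 56.6 CPM in matrix-high cells. The matrix-high values rest on 51 and 5 UMIs, so no direction is read from that range. *Kcnj8* stood at 190 and 331 CPM in matrix-low and at 199 and 192 CPM in matrix-high cells. *Mgp* had a ratio of 1.18 in all pericytes, 1.66 in matrix-low and 0.118 in matrix-high cells, where it stood at 7006 CPM in vehicle and 827 CPM in FAKi. The vehicle UMIs behind that last ratio were spread unevenly over cells. Of 2569 UMIs in vehicle matrix-high cells, 3 cells held 369, 365 and 281, the median was 3 UMIs against 1 in FAKi, and 54.2% of vehicle against 60.0% of FAKi cells had a UMI. Of the 18 pericyte and smooth muscle genes, 1, *Acta2*, was past 2-fold, near the 4.62% of all genes, and the median log2 ratio of the list was 0.04.

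Cell division was rare. *Mki67*, *Top2a* and *Cdk1*, which mark dividing cells, had 17, 27 and 19 UMIs in vehicle and 0 in FAKi pericytes. The *Mki67* UMIs came from 4 vehicle cells and those of *Top2a* and *Cdk1* from 2 each, with 76.5% to 94.7% in 1 cell. With so few cells holding these UMIs, no difference in the share of dividing cells is read, and none was tested.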

How the data were processed

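Droplet single-cell RNA sequencing (3′ chemistry, 1 library per treatment, 4 lanes each) was aligned by the authors to mm10 with Cell Ranger. Per the submitters' processing notes Seurat 3.1 was used, and per the paper cells with mitochondrial RNA under 8% were kept, normalised with SCRAN, integrated with scanorama and clustered by the Louvain method, although the deposited cluster column carries a Seurat name. The deposited table holds raw UMI counts of 19945 genes in 6959 cells, and the deposited annotation gives treatment, cluster and cell type. All per-cell sums equalled the deposited totals. Removal of doublets or free RNA is not given in the sources used here; scrublet was run in scanpy 1.11.5. Of the gene names, 23 had been turned into dates and were left as they were. Gene positions are from GENCODE vM21.

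Counts were summed over pericytes per library and scaled to CPM. Ratios carry exact conditional binomial 95% intervals, shares Clopper-Pearson and levels Poisson intervals, which cover counting error only. Cells and lanes are not replicates, so no test was run and no p-value is given. Called genes were those with at least 50 UMIs in pericytes and a CPM ratio of 2 or more in either direction; log2 ratios used a pseudocount of 10 CPM. The interval and ratio code was tested on simulated data.

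Named are the 20 genes with the highest mean log2 ratio of pericytes over all other cells (at least 10% of cells with a UMI, higher in both libraries), the 12 highest and 12 lowest FAKi over vehicle ratios among genes of which no cell holds over 50% of the UMIs, the members of the marker lists, and up to 6 members of each pathway list, those past 2-fold first and then those with most UMIs. Of the first 20 and of the 12 highest, 1 and 2 genes are not reported here. *Ptk2*, *Ccl7*, *Mki67*, *Top2a*, *Cdk1*, *Ins2*, *Sst* and the genes described for the matrix-high and matrix-low ranges were chosen after their values were seen. The class, the lists and the tests were chosen with earlier results of these data known. Alternatives to the cells used, the scaling, the filter and the pseudocount are given at the end.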

Additional observations from a re-analysis of the deposited data

Results flagged for a closer look

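*Gcg* and *Sst* were past 2-fold in opposite directions in pericytes and in another class, in the single pair of libraries and without a test of the difference. *Gcg* had a FAKi over vehicle ratio of 0.183 in pericytes, 3.56 (95% interval 3.09 to 4.10) in fibroblasts and 6.86 (6.58 to 7.16) in endothelial cells. The endothelial value rests on few cells, as 1 endothelial cell held 33.0% of the *Gcg* UMIs of both libraries. Over FAKi endothelial and immune cells together, the top 2 cells held 72.2% of 9658 UMIs (3660 and 3312). *Sst*, the somatostatin gene, had one of 0.271 in pericytes, where 1 cell held 77.8% of its UMIs, and of 5.29 (4.83 to 5.78) in fibroblasts, where 1 cell held 49.8%. Both are hormone genes of endocrine cells, and both turned to a ratio above 1 in pericytes once the cells with 1000 or more UMIs of *Gcg* or *Ins2* were left out.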

How the results depend on the processing

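There is 1 library of pooled mice per treatment, with 64 FAKi pericytes. No paired analysis was possible because the replicate numbers are lanes of 1 library and the count table has no column per lane; no library could be left out. The 42 higher and 118 lower genes became 73 and 158 when CPM was averaged over cells, 38 and 50 in cells under 5% mitochondrial UMIs, 18 and 28 after thinning to 1000 UMIs, 202 and 450 with at least 20 UMIs, 1787 and 3515 with no filter, and 12 and 12 with a pseudocount of 100 CPM; thinning and the mitochondrial limit left 584 and 1032 genes to compare. Both counts stayed within 1.5 times the main ones in 7 further settings, namely scaling without the 20 most abundant genes or without mitochondrial, ribosomal, acinar and hormone genes, leaving out doublets, cells with under 1000 genes, the 10% of cells richest in acinar and beta-cell UMIs or the top cell of each gene, and a pseudocount of 1 CPM. The 10 named highest kept their direction in the 9 of these 13 settings that change the cells or the scaling, and the 12 lowest in all but the mitochondrial limit, where *Gcg* (log2 2.15) and *Stmn1* (0.45) turned. In that setting *Pcsk2* (2.38) and *Sst* (2.29) turned too. *Sst* also turned with CPM averaged over cells (0.060), without those 10% of cells (1.70), after thinning (0.47) and without the top cell of each gene (0.58), *Chga* without doublets (-0.28) and *Cnn1* after thinning (0.31). The contractile and immediate early medians stayed between -0.69 and -0.44 and between -0.71 and -0.43 over these settings; the chemokine median was -1.42 without the top cell of each gene.

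Alternatives chosen after seeing the data were matrix-high cells (medians: contractile -0.83, immediate early -0.14, chemokines -0.20; *Sncg* -0.81, *Sst* 1.73), matrix-low cells (19 higher and 52 lower of 1907 genes; contractile -0.21, immediate early -0.95, chemokines -1.20; acinar list -0.34, *Prss2* -0.35, *Rnase1* -0.028, *Actg2* 0.49), equal weight of both (chemokines -0.35) and removal of hormone-rich cells (*Gcg* 1.88, *Sst* 0.70). The cause of these shifts was not tested. The filter on UMIs does not alter the value of a single gene.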

Other observations

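Beyond the genes named by rule, further genes lower by 2-fold or more in FAKi pericytes are given here as values chosen after they were seen. *Gadd45b*, a stress-induced gene, had 465 UMIs in vehicle and 41 in FAKi pericytes (ratio 0.272), with a UMI in 59.9% and 31.2% of cells, and in 25.5% and 11.1% after thinning to 1000 UMIs. *Socs3*, a relative of *Socs1*, had 662 and 105 UMIs (ratio 0.490), and *Nfkbiz*, a nuclear regulator of NF-κB, 236 and 24 (0.314). *Irf1*, an interferon-induced factor, had a ratio of 0.455. *Id2*, a relative of *Id4*, had 223 and 21 UMIs (0.291), and *Pde4b*, a cyclic AMP phosphodiesterase, 318 and 32 (0.311). *Eln*, elastin, had 438 and 62 UMIs (0.437), and *Lox*, which crosslinks elastin and collagen, 44 and 2 (0.140), under the minimum of 50.

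Among genes that were higher, *Sncg*, gamma-synuclein, had 109 UMIs in vehicle and 80 in FAKi pericytes (ratio 2.27). It stood at 247 and 494 CPM in matrix-low cells and at 27.3 and 11.3 CPM in matrix-high cells. The matrix-high values rest on 10 and 1 UMIs, so no direction is read from them. *H2-D1*, a class I histocompatibility gene, had a ratio of 1.67 (1.42 to 1.95), while *B2m* and *H2-K1* had ratios of 1.06 and 1.13. The MHC class I list had 0 of 7 members past 2-fold. Glycolytic genes had 0 of 9 past 2-fold, with a median log2 ratio of 0.14. The lists of exocytosis and of lipid metabolism had 0 of 5 and 0 of 6 past 2-fold, with medians of 0.20 and -0.18. With 4.62% of all genes past 2-fold, counts of 0 in lists this short say nothing particular about them.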
